A study of Homo sapiens with 8 samples.

Results

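KYSE70 and KYSE450, 2 established human cell lines of esophageal squamous cell carcinoma (ESCC), were compared with each other across all the conditions in which they were sequenced. The comparison takes in all 8 libraries of the series, 4 from each line. In both lines 1 library came from cells transfected with the pcDNA3.1 plasmid control (CON), 1 from cells transfected with pcDNA3.1 carrying the long noncoding RNA NMR (NMR), 1 from cells infected with the control lentivirus (shcon) and 1 from cells infected with the lentivirus that carried the short hairpin RNA against NMR (shRNA). CON and NMR are called the plasmid arm here, and shcon and shRNA the lentiviral arm. Transfection used a lipid reagent, the lentivirus was made in HEK 293T packaging cells, and total RNA was taken from cells at passages 5 to 10. Of the 48162 genes listed, 14311 had a mean of at least 1 FPKM over the 8 libraries and were tested. FPKM divides a gene's reads by its length in kilobases and by the reads of the library. Each side of the comparison is 1 cell line. Its 4 libraries are 4 treatments of that line, so a p-value measures how steady the difference was across treatments and not how squamous carcinoma lines differ in general. Whether separate cultures stand behind the libraries is not stated. NMR itself was not matched to a listed gene, so its level was not checked.

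ESCC arises from the stratified squamous lining of the esophagus, whose basal cells depend on the transcription factors p63 and SOX2 and on keratins 5 and 14. Tumours of this kind often carry a constantly active NRF2, the transcription factor that KEAP1 marks for degradation in unstressed cells and that switches on genes of glutathione synthesis, NADPH supply and detoxification. They also differ in how far they keep epithelial junctions and in how much of the ZEB and TWIST programmes of epithelial-mesenchymal transition they express.

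The libraries held 26401805 to 37937856 reads recovered from the deposited values. Libraries of the same line correlated at 0.949 or more over the tested genes, and libraries of different lines at 0.797 to 0.847. Of 12 squamous markers, 10 stood at 10 FPKM or more in all 8 libraries, the exceptions being KRT14 and KRT17 in KYSE70. All 11 glandular markers were under 1 FPKM throughout. Of 13 leukocyte markers, 2 reached 1 FPKM in any library, and CD3D and MS4A1 were listed at 0 in all 8. One library stood apart from the rest: in KYSE70 shRNA, mitochondrially encoded genes made up 8.63% of the FPKM sum, against 5.13 to 5.75% in the other KYSE70 libraries and 3.84 to 4.63% in KYSE450. Genes high in one line gave a low signal in the other. In KYSE70 libraries, 8 genes high in KYSE450 had a median of 0.0735 to 0.261% of their KYSE450 level, and in KYSE450 libraries, 6 genes high in KYSE70 had 0.00882 to 0.222% of their KYSE70 level. Whether such low values are expression or reads from other libraries was not tested.

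Between the lines, 7726 genes passed an adjusted p of 0.05 (54% of those tested), by limma's moderated test on log2(FPKM + 1) with treatment as a block. KYSE70 was higher for 3810 of them (26.6%) and KYSE450 for 3916 (27.4%). The difference was at least 1 on the log2 scale for 1652 (11.5%) and 1822 (12.7%), and at least 3 for 175 and 276. Of the called genes 7598 had the same sign in all 4 treatments, as had 9261 of all tested genes (64.7%). The test favours steady differences, so this agreement is not separate support for the calls. The 4 libraries of the higher line lay above all 4 of the other for 3449 genes in KYSE70 (24.1%) and 3506 in KYSE450 (24.5%). Because more than 50% of all genes were called, a count of called members in a gene group is read below against these shares.

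Enzymes of detoxification and a stress protein were among the 10 protein-coding genes furthest apart in favour of KYSE70. Values are given in FPKM in the order CON, NMR, shcon and shRNA, and differences are KYSE70 minus KYSE450 on the log2(FPKM + 1) scale with the standard error (SE) of the fit over 4 pairs of libraries and limma's adjusted p. CES1, a liver-type carboxylesterase, stood at 926, 864, 939 and 1134 in KYSE70 and 1.24, 0, 0 and 2.05 in KYSE450 (log2 difference 9.22, SE 0.25, adjusted p = 1.93e-06). AKR1B10, an aldo-keto reductase that reduces retinal and lipid aldehydes, stood at 1423, 1523, 1727 and 1744 against 3.58, 1.06, 1.01 and 5.72 (log2 difference 8.90, SE 0.30, adjusted p = 3.17e-06). UCHL1, a deubiquitinating enzyme abundant in neurons, stood at 971, 868, 681 and 588 against 1.14, 0.0728, 0.14 and 1.6 (log2 difference 8.88, SE 0.28, adjusted p = 2.44e-06). In KYSE450 all 3 were higher in CON and shRNA than in shcon. The secreted phosphoprotein SPP1 (osteopontin) ran from 172 to 498 in KYSE70 and stayed at 0.0549 to 0.501 in KYSE450. ALDH1A1, which makes retinoic acid from retinal, stood at 432, 331, 538 and 302 against 1.49, 1.15, 4.14 and 2.77. The small heat shock protein gene CRYAB (difference 6.94), the secreted OLFM1 (6.95), the microfibril gene MFAP5 (6.29) and the integrin subunit ITGB4 (6.19) followed, each with no overlap between the lines. FAM50A, a nuclear protein gene of the X chromosome, stood at 119, 107, 122 and 55.9 in KYSE70, lowest in shRNA, and at 0 to 0.234 in KYSE450.

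Most of the 10 genes furthest apart in favour of KYSE450 are known from epithelia. KRT17, a basal and wound keratin, stood at 0.638, 0.535, 0.341 and 0.873 in KYSE70 and 254, 264, 190 and 210 in KYSE450 (log2 difference -7.17, SE 0.15, adjusted p = 6.92e-07). SPINT2, a Kunitz inhibitor of surface serine proteases, stood at 0.469, 0.308, 0.663 and 0.489 against 157, 173, 165 and 168 (log2 difference -6.82, SE 0.14, adjusted p = 6.92e-07). RAB25, a GTPase of epithelial recycling endosomes, stood at 0.208, 0.0437, 0.0991 and 0.149 against 98.7, 105, 144 and 134 (log2 difference -6.74, SE 0.16, adjusted p = 1.28e-06). The P-cadherin gene CDH3 (-6.75), the epithelial clathrin adaptor AP1M2 (-6.37) and the anchoring filament gene LAD1 (-6.29) were all under 3 FPKM in every KYSE70 library. LCP1, an actin bundling protein better known from leukocytes, stood at 0.907, 0.62, 0.61 and 1.29 against 228, 213, 293 and 327. IGFBP6, which binds insulin-like growth factors, had the widest difference of these 10 (-7.66, SE 0.58) and was uneven within KYSE450, at 678, 1217, 174 and 150, with the plasmid arm above the lentiviral arm. KRT14 was uneven within KYSE70, at 3.2, 5.08, 3.57 and 38.3 against 371, 1211, 921 and 708 in KYSE450, and its difference was -6.48 (SE 0.55).

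**Figure D1:**
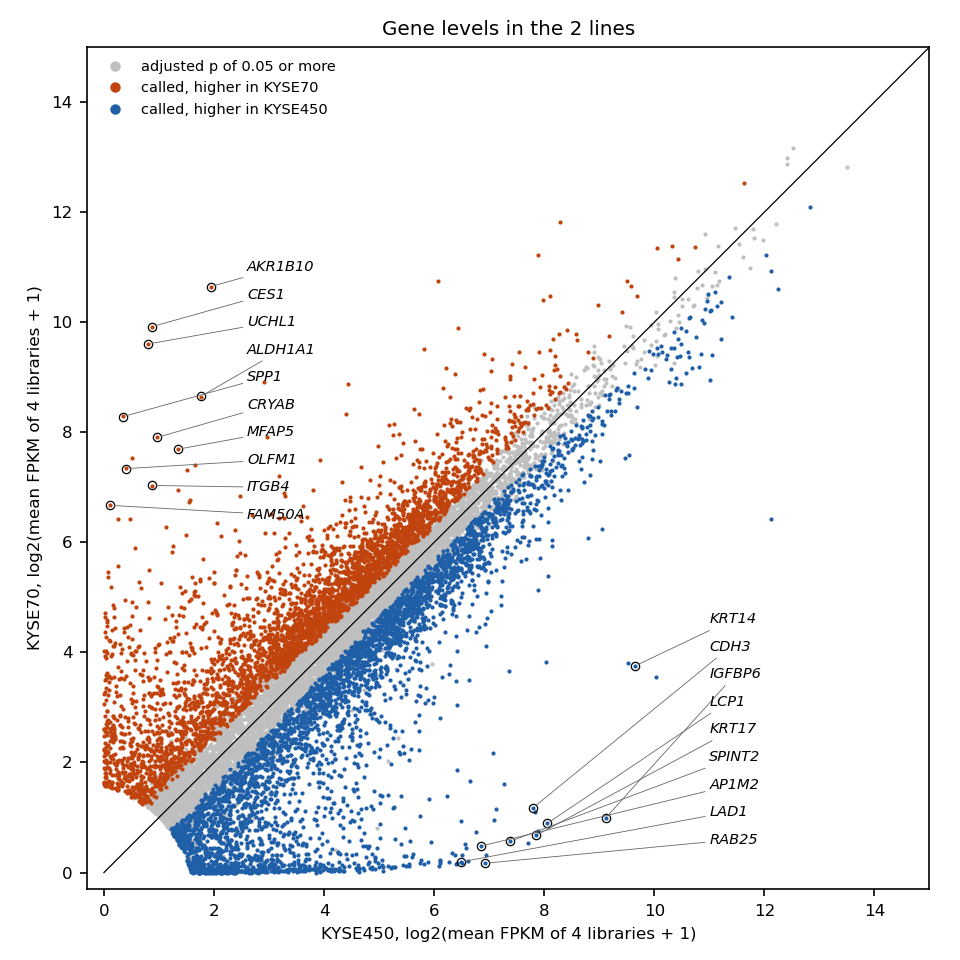
Level of each of the 14311 tested genes in KYSE450 (horizontal axis) and KYSE70 (vertical axis), as log2 of the mean FPKM of the 4 libraries plus 1; colours mark genes called at an adjusted p of 0.05 and the line is equality. The named protein-coding genes on each side lie within 2 log2 units of 0 in the lower line, except KRT14, which had 3.20 to 38.3 FPKM in KYSE70.

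Genes of the NRF2 pathway were mostly higher in KYSE70. All 38 listed genes were tested, and 32 were called higher in KYSE70 and 3 higher in KYSE450, with a median difference of 1.56 against -0.018 for all genes. Of the regulators, NFE2L2, which encodes NRF2, stood at 108, 100, 98.5 and 238 in KYSE70 and 108, 108, 138 and 107 in KYSE450 and was not called (adjusted p = 0.652). Its direction rested on the shRNA libraries, and with either of them left out the difference was -0.19. KEAP1, its inhibitor, was called higher in KYSE70 (0.83, SE 0.18) although the libraries overlapped.

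For 27 of the 38 genes RefSeq promoters were available, 36 in all. The core of the antioxidant response element (TGAC, any 3 bases and GCA, on either strand) occurred in the 250 bases before the start in 7 of these 36 promoters (19.4%) and in 911 of all 35116 promoters (2.59%). Windows are shown for 5 of the genes with a match, because they fall on both sides of the comparison: EPHX1, TXNRD1, GPX2 and CYP4F11 were higher in KYSE70 and CBR1 in KYSE450. The remaining matched genes were KEAP1, called higher in KYSE70 with overlap, and GCLM, which was not called. The matched letters are in capitals and each window runs 5′ to 3′ on the strand of the gene, from RefSeq on GRCh38.p14. A match describes the letters only and does not show binding. The list was made of NRF2 pathway genes and targets, so its share of matched promoters describes the list and not the difference between the lines.
EPHX1, chr1:225825231-225825330, plus strand: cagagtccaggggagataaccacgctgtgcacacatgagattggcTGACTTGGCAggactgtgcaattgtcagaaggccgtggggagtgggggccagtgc
TXNRD1, chr12:104286884-104286983, plus strand: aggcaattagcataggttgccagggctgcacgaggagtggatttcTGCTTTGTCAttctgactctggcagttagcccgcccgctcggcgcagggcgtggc
GPX2, chr14:64942814-64942913, minus strand: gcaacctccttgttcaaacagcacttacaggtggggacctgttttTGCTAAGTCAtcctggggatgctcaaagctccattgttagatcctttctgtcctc
CYP4F11, chr19:15934970-15935069, minus strand: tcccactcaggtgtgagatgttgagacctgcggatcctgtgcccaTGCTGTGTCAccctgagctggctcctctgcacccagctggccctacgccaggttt
CBR1, chr21:36069819-36069918, plus strand: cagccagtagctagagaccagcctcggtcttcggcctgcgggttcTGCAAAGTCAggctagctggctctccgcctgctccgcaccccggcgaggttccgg

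Among the enzymes, EPHX1, the microsomal epoxide hydrolase, stood at 451, 441, 442 and 458 in KYSE70 and 94.8, 92.6, 36.4 and 57.3 in KYSE450 (log2 difference 2.75, SE 0.24, adjusted p = 0.000113). TXNRD1, thioredoxin reductase, stood at 689, 703, 524 and 418 against 180, 126, 247 and 243 (1.56, SE 0.28). The glutathione peroxidase GPX2 (1.01, SE 0.17) and the cytochrome CYP4F11 (2.35, SE 0.22) had no overlap between the lines either. CYP4F3, a neighbour of CYP4F11 in the same family, stood at 27.2, 27.7, 51.2 and 80.1 against 0.438, 0.114, 0.025 and 0.211 (5.18). CBR1, a carbonyl reductase whose window is shown above, went the other way, at 0.476, 0.0587, 0.466 and 0.466 against 99.7, 106, 78.8 and 93.4 (log2 difference -6.13, SE 0.18, adjusted p = 2.14e-06). Of the other reductases, AKR1C1 (3.72), AKR1C2 (3.72) and AKR1C3 (4.19) were all higher in KYSE70. They are similar in sequence, as are the CYP4F genes, so the split of reads among them is uncertain.

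Genes of glutathione and iron came next. GCLC, the catalytic subunit of the first enzyme of glutathione synthesis, stood at 828, 948, 314 and 665 against 89.2, 61.4, 175 and 148 (log2 difference 2.53, SE 0.45, adjusted p = 0.0032). Its partner subunit GCLM stood at 76.6, 69.2, 48.4 and 60.3 against 70.3, 60.2, 44.8 and 62.1 and was not called (adjusted p = 0.48). SLC7A11, the cystine importer, stood at 37.5, 39.1, 57.5 and 73.8 against 7.14, 6.61, 25.7 and 19.5 (1.91, SE 0.22), with all 4 KYSE70 libraries above all 4 of KYSE450. HMOX1, heme oxygenase, ran from 28.1 to 63.7 in KYSE70 and 1.19 to 3.33 in KYSE450 (3.57). The ferritin chains FTL (3.31) and FTH1 (1.42), which store iron, were both called. The FTH1 difference was 1.76, 1.79 and 1.95 under CON, NMR and shcon but 0.17 under shRNA, at 349 FPKM in KYSE70 against 310 in KYSE450. In the pentose phosphate pathway, which supplies NADPH, PGD (2.40) and TALDO1 (0.96) were higher in KYSE70, while TKT was higher in KYSE450 (-0.54, SE 0.14). The TKT call was lost in the lentiviral arm alone (-0.40, adjusted p = 0.252) and with any CON, NMR or shcon library left out (adjusted p = 0.0557 to 0.0949). UGDH, which makes UDP-glucuronate for conjugation, was also higher in KYSE450, at 254, 335, 255 and 283 against 63.1, 73.2, 49.1 and 74.9.

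**Figure D2:**
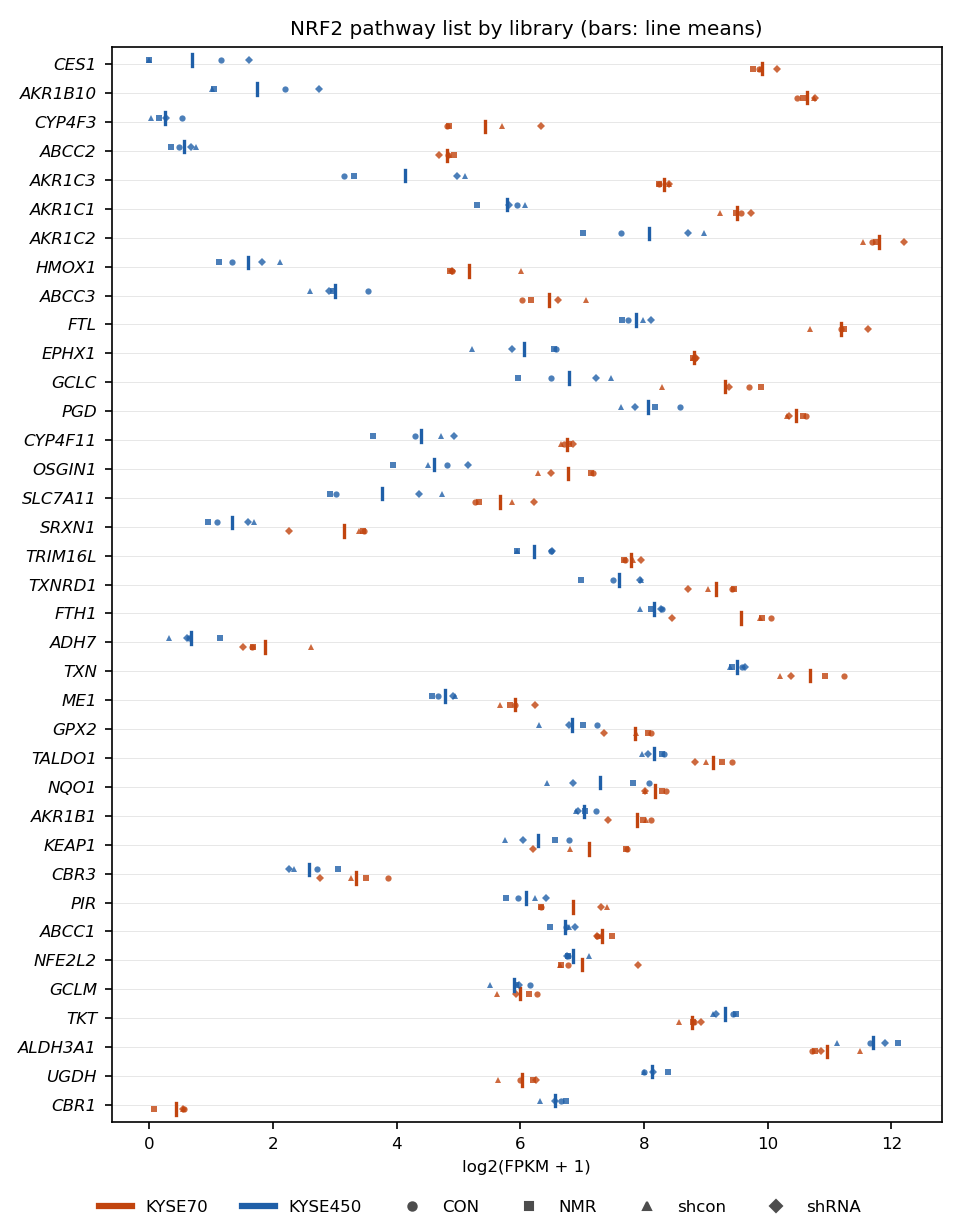
Reported members of the NRF2 pathway list ordered by line difference, with log2(FPKM + 1) on the horizontal axis; each point is 1 library, shapes are treatments and bars are means of 4 libraries. Means of KYSE70 lie to the right for the genes called higher there, and CBR1 and UGDH at the bottom show the reverse.

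Of 14 tested genes of retinoid and aldehyde metabolism, 6 were called higher in KYSE70 and 4 in KYSE450 (median difference -0.03). The list split by isoenzyme. Beside ALDH1A1, the fatty aldehyde dehydrogenase ALDH3A2 stood at 1140, 1082, 1121 and 2067 against 259, 263, 247 and 233 (2.37), and CYP26A1, which degrades retinoic acid, at 26, 26.5, 42.2 and 21.1 against 5.16, 3.08, 0.328 and 1.28 (3.30). ALDH7A1, which oxidises lysine breakdown products, stood at 0.189, 0.0283, 0.0963 and 0.225 against 114, 111, 62.5 and 70.8 (log2 difference -6.27, SE 0.20, adjusted p = 2.83e-06). The mitochondrial acetaldehyde dehydrogenase ALDH2 ran from 0.157 to 0.892 in KYSE70 and 16.2 to 24.8 in KYSE450 (-3.89), and ALDH1A3 (-1.53) and DHRS3 (-1.84) were also higher in KYSE450.

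Epithelial junction and polarity genes were mostly higher in KYSE450: of 24 tested, 18 were called higher there and 3 in KYSE70, with a median of -1.18. With either shcon library left out, 1 was called higher in KYSE70. CDH1, which encodes E-cadherin, the main adhesion molecule of epithelia, stood at 13.2, 11.9, 30.4 and 48.9 in KYSE70 and 143, 164, 104 and 110 in KYSE450 (log2 difference -2.48, SE 0.42, adjusted p = 0.00237). It was detected in every KYSE70 library, and higher there in the lentiviral than in the plasmid arm. The splicing regulators ESRP1 and ESRP2, which set epithelial exon choice, were low in KYSE70. ESRP1 stood at 0.16, 0.0764, 0.537 and 0.243 against 70.7, 80.4, 125 and 83.7 (log2 difference -6.16, SE 0.14, adjusted p = 1.16e-06) and ESRP2 at 0.744, 0.914, 0.91 and 1.54 against 59.5, 56.2, 44.9 and 48.9 (log2 difference -4.72, SE 0.18, adjusted p = 4.23e-06). Of the tight junction genes, CLDN7 stood at 0.125, 0.0328, 0.111 and 0.149 against 8.09, 7.66, 21.9 and 19 (-3.64) and CLDN1 at 1.66, 2.38, 5.79 and 6.14 against 46, 37.5, 31.4 and 22.6 (-2.91), while OCLN was not called (adjusted p = 0.0876). CRB3, an apical polarity gene, stood at 0.818, 0.618, 2.8 and 1.4 against 15.4, 15.6, 18.3 and 18.4 (-2.97). EPCAM, an epithelial surface marker, was high in both lines, at 208 to 260 and 348 to 416 (-0.73). The genes higher in KYSE70 were the protease ST14, matriptase (0.60), MARVELD2 (0.57) and CLDN4 (0.91, adjusted p = 0.0472, with overlap). CLDN4 lost its call in the plasmid arm alone (0.18, adjusted p = 0.325) and with any shcon or shRNA library left out, MARVELD2 with either shcon library left out (adjusted p = 0.0772 without that of KYSE70), and ST14 in the lentiviral arm alone (adjusted p = 0.0545).

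The E-box CACCTG, the letters that ZEB factors are known to bind, occurred on either strand in the 250 bases before the start in 7 of 16 RefSeq promoters of 12 of these genes (43.8%) and in 17.5% of all promoters. Windows are shown for 3 of the matched genes that differed between the lines, with each E-box in capitals. The other 3 matched genes, OCLN, SPINT1 and TJP3, were not called. The windows are on GRCh38.p14, and the search says nothing about occupancy or about which factor binds. The share rests on 16 promoters and describes the list, not the difference between the lines.
RAB25, chr1:156061074-156061159, plus strand: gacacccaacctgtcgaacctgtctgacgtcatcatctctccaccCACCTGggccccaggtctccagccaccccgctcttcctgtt
CLDN7, chr17:7262602-7262697, minus strand: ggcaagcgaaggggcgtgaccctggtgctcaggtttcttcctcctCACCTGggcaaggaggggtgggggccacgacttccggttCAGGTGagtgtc
CRB3, chr19:6464021-6464093, plus strand: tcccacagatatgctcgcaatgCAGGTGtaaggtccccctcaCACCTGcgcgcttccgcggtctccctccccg

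The mesenchymal list did not lie on 1 side. Of 18 tested genes, 9 were called higher in KYSE70 and 4 in KYSE450 (median 1.06). ZEB1, a repressor of epithelial genes, stood at 9.21, 6.03, 4.97 and 7.04 in KYSE70 and 0.256, 0.125, 0.375 and 0.334 in KYSE450 (log2 difference 2.59, SE 0.19, adjusted p = 5.3e-05). TWIST1 and TWIST2, other inducers of mesenchymal change, were expressed in KYSE450 instead. TWIST1 stood at 0.0685, 0.18, 0 and 0 against 17.7, 19, 16.4 and 19.7 (log2 difference -4.18, SE 0.15, adjusted p = 3.75e-06) and TWIST2 at 0.027, 0, 0 and 0.0322 against 5.77, 4.8, 6.44 and 6.37 (-2.75). SNAI2, a related repressor that basal keratinocytes also use, was expressed in both lines and not called (adjusted p = 0.0624). The cadherins of mesenchyme, CDH2 (2.18) and CDH11 (3.49), were higher in KYSE70, as were THY1 (3.08) and the collagen gene COL5A2 (3.37). The receptor tyrosine kinase AXL (-2.26) and the collagen gene COL6A2 (-1.36, with overlap) were higher in KYSE450. COL6A2 lost its call in the lentiviral arm alone (-0.32, adjusted p = 0.368) and with any CON, NMR or shRNA library left out (adjusted p = 0.0661 to 0.0971). VIM, which encodes the mesenchymal filament vimentin, was under 1.1 FPKM in all 8 libraries (0.225 to 1.02 in KYSE70, 0.287 to 1.09 in KYSE450) and below the filter. Of 10 fibroblast markers 4 reached 1 FPKM in any library. Their summed level was 32.7 to 63.8 FPKM in KYSE70 and 32.4 to 40.0 in KYSE450, and DCN did not exceed 0.04 FPKM in either line.

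**Figure D3:**
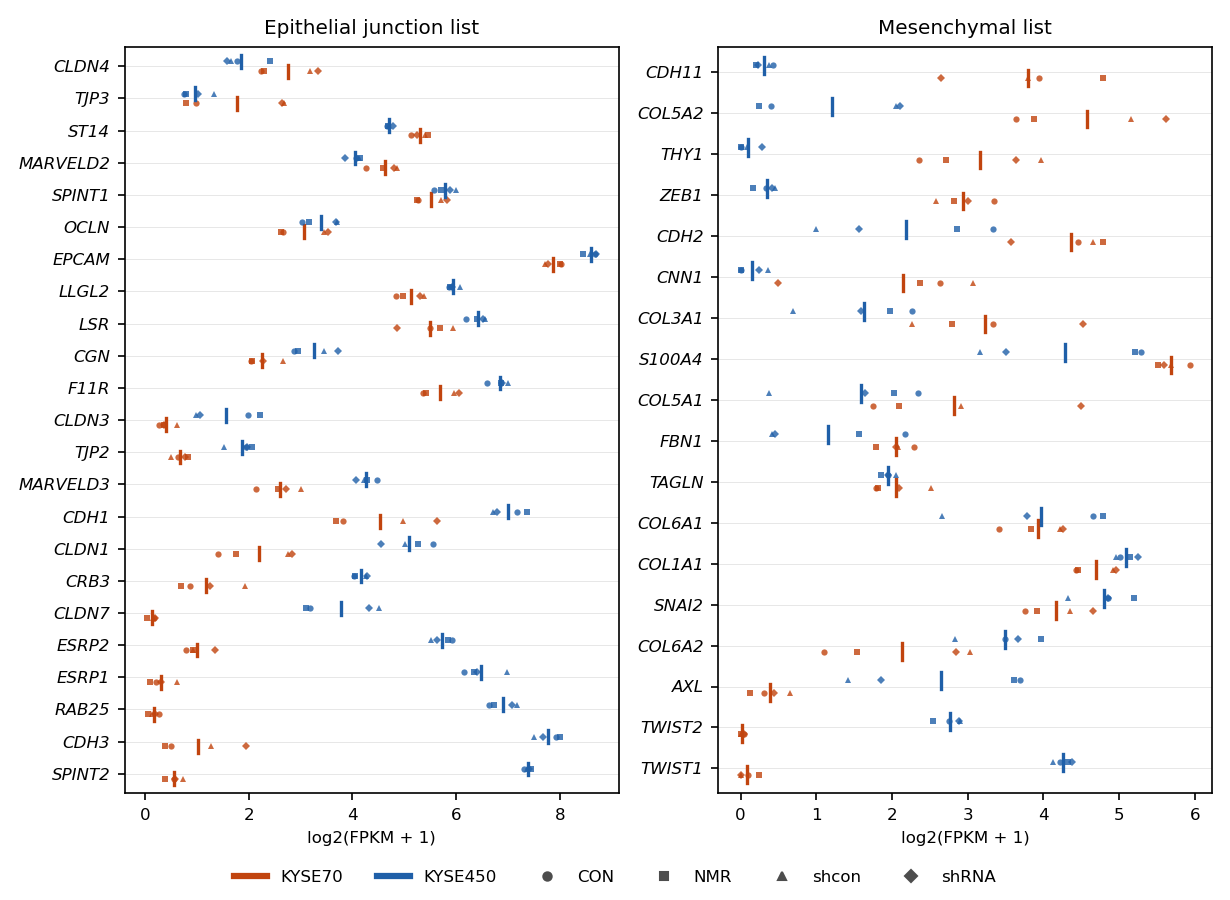
Reported members of the epithelial junction list (left) and the mesenchymal list (right) that passed the filter, as log2(FPKM + 1), 1 point per library, with shapes for treatments and bars for means of 4 libraries. On the left the KYSE450 mean is the higher for the genes called there; on the right ZEB1 and CDH11 are high in KYSE70 and TWIST1 and TWIST2 in KYSE450.

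Of 16 tested squamous lineage transcription factors, 6 were called higher in KYSE70 and 9 in KYSE450, and with either shcon library left out 3 and 9. SOX2 stood at 221, 226, 310 and 97.2 in KYSE70 and 176, 173, 177 and 196 in KYSE450 and was not called (adjusted p = 0.722). With either shRNA library left out it was called higher in KYSE70 (0.51, adjusted p = 0.0224 without that of KYSE70), as it was in the plasmid arm alone (0.36, adjusted p = 0.00221) and in the controls alone (0.57, adjusted p = 0.0397). TP63 stood at 140, 189, 218 and 346 against 233, 307, 654 and 439 (-0.84, SE 0.21, adjusted p = 0.0125). It was lower in KYSE70 under each treatment although the ranges overlapped, and it was not called without the treatment block (adjusted p = 0.0692). FOXE1, a forkhead factor of foregut epithelium, stood at 0.0184, 0.0193, 0.0438 and 0.0438 against 8.83, 8.6, 14.2 and 17 (log2 difference -3.62, SE 0.20, adjusted p = 1.79e-05). PAX9, needed in esophageal differentiation, was lower in KYSE70 (-1.90), as was KLF4 (-1.48). On the other side GRHL3, a regulator of the epidermal barrier, ran from 19.6 to 24.5 in KYSE70 and 1.51 to 8.16 in KYSE450 (2.25). SOX15 (1.89) and EHF (1.92, with overlap) were also higher in KYSE70. EHF lost its call in the plasmid arm alone (0.41, adjusted p = 0.0659) and with any shcon or shRNA library left out (adjusted p = 0.129 to 0.148).

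The keratins of the basal layer did not move as 1 group. KRT5 stood at 8172, 10459, 4156 and 6154 against 14239, 19246, 4948 and 7730 and KRT6A at 3585, 4321, 2790 and 2580 against 3122, 4398, 2637 and 3975, and neither was called (adjusted p = 0.109 and 0.749). KRT15 stood at 9.61, 10.1, 13.1 and 19.5 against 874, 1396, 185 and 491 (log2 difference -5.41, SE 0.51, adjusted p = 0.000171) and KRT16 at 0.0314, 0.164, 0 and 0.187 against 7.43, 24.7, 18.2 and 26.4 (-4.07). Together with KRT14 and KRT17, these were the 4 keratin genes of the basal list that were higher in KYSE450. Over the whole list 11 of 18 were called higher in KYSE450 and 2 in KYSE70, TRIM29 (1.86) and DST (1.37), with a median of -1.02. S100A2, a calcium-binding protein of basal cells, was lowest in KYSE70 shRNA (82.8 FPKM, against 320 to 745 in the other KYSE70 libraries; -2.02). Of 11 tested genes of squamous differentiation, 5 were called higher in KYSE450 and 1 in KYSE70, ECM1, which lost its call with any CON, shcon or shRNA library left out (adjusted p = 0.0515 to 0.0843). KRT13, the keratin of maturing esophageal layers, stood at 68.5, 87.7, 49.2 and 134 against 5525, 6433, 2139 and 3796 (log2 difference -5.68, SE 0.26, adjusted p = 9.05e-06). CSTA, a cornified envelope inhibitor, stood at 6.83, 8.14, 20.5 and 11.1 against 68.4, 125, 247 and 211 (-3.65), and SPRR1B ran from 0.871 to 1.97 against 4.38 to 48.6 (-3.16). The other 11 differentiation genes listed, among them IVL and CRNN, had a mean under 1 FPKM.

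Integrins and laminins differed by subunit. Of 19 tested, 5 were called higher in KYSE70 and 10 in KYSE450, the latter 6 with either shcon library left out. ITGB4, which pairs with the α6 subunit in hemidesmosomes, stood at 117, 145, 133 and 124 in KYSE70 and 0.716, 1.58, 0.331 and 0.737 in KYSE450 (log2 difference 6.19, SE 0.17, adjusted p = 1.82e-06). Its partner ITGA6 was expressed in both, at 64.2, 66.5, 63 and 71 against 81, 107, 115 and 84.6, and was called higher in KYSE450 (-0.53, SE 0.14). ITGB6, the epithelial β6 subunit, was close to 0 in KYSE70 at 0 to 0.0667 and stood at 5.56, 6.86, 10.7 and 12.9 in KYSE450 (-3.22). ITGB1, the common β1 subunit, was higher in KYSE70 (1.64). Of the chains of laminin-332, the ligand of hemidesmosomes, LAMA3 stood at 5.22, 6.53, 8.15 and 10.5 against 12.4, 20.3, 39.7 and 32.5 (-1.58) and LAMB3 at 195, 239, 207 and 253 against 351, 412, 257 and 306 (-0.55), both lower in KYSE70. The hyaluronan receptor CD44 was higher in KYSE70 (1.24).

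All 12 tested genes of the protease list were called, 7 higher in KYSE70 and 5 in KYSE450. The 5 were all secreted proteases, and 5 of the 7 were protease inhibitors. The collagenase MMP13 stood at 0.106, 0.143, 0.0181 and 0.235 against 29.3, 36.3, 53.2 and 91.7 (log2 difference -5.44, SE 0.26, adjusted p = 9.29e-06) and the stromelysin MMP10 at 0.597, 0.456, 0.452 and 0.42 against 31.4, 79.7, 16 and 57 (log2 difference -4.76, SE 0.36, adjusted p = 6.3e-05). PLAU, which encodes urokinase, was listed at 0, 0.0233, 0.0265 and 0 in KYSE70 and 2.3, 4.19, 3.8 and 2.9 in KYSE450 (-2.06), and MMP1 (-1.41) and MMP2 (-1.55) were also higher in KYSE450. The inhibitors TIMP1 (2.26), TIMP2 (2.53), TIMP3 (3.22) and SERPINE2 (1.14) were higher in KYSE70. So were the urokinase receptor PLAUR (1.25) and the membrane-bound MMP14, at 54.3, 60.1, 70 and 57.9 against 26.8, 39.8, 26.6 and 26.6 (1.01). TIMP3 reached 55.2 FPKM in KYSE70 shRNA against 13 to 15.2 in the other KYSE70 libraries.

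In the EGF receptor family the 3 receptors tested were called higher in KYSE450, ERBB2 not under every alternative, and the ligands divided. EGFR stood at 158, 202, 141 and 268 in KYSE70 and 878, 852, 532 and 713 in KYSE450 (log2 difference -1.96, SE 0.19, adjusted p = 0.000178). ERBB3 stood at 1.01, 0.847, 2.35 and 2.46 against 32.7, 36.5, 30.8 and 24.8 (-3.64), and ERBB2 differed by -0.64 with overlap. ERBB2 lost its call without the block (adjusted p = 0.0738), in the lentiviral arm alone (-0.25, adjusted p = 0.446), in the controls alone (adjusted p = 0.146) and with any CON, NMR or shRNA library left out (adjusted p = 0.0551 to 0.12). The ligands EGF, at 8.67, 8.16, 10.8 and 14.4 against 0.281, 0.759, 1.2 and 0.868 (2.69), and TGFA, at 44.2, 36.3, 99.6 and 41.7 against 8.08, 8.85, 18 and 17 (1.97), were higher in KYSE70. EREG, which encodes epiregulin, was at most 0.03 FPKM in KYSE70 and stood at 2.28, 3.23, 58.6 and 14 in KYSE450, with the lentiviral arm above the plasmid arm (-3.37, SE 0.65). Over the list 3 of 11 tested genes were higher in KYSE70 and 4 in KYSE450. Of 26 tested genes of other receptor kinase families, 9 were higher in KYSE70 and 7 in KYSE450. EPHA2, an ephrin receptor, stood at 71.3, 81.9, 99.5 and 89.2 against 8.22, 9.05, 11 and 6.58 (log2 difference 3.16, SE 0.14, adjusted p = 8.15e-06). MST1R, the receptor RON, stood at 0.361, 0.28, 0.466 and 0.504 against 24.3, 29.2, 23.5 and 27 (log2 difference -4.26, SE 0.16, adjusted p = 4.03e-06), and FGFR4 ran from 2.41 to 8.22 against 23.9 to 59 (-2.85). IGFBP3, the main binding protein of insulin-like growth factors, stood at 1152, 1356, 1250 and 3127 against 46.9, 80, 61 and 75.8 (4.58), opposite to IGFBP6.

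Among regulators of entry into S phase, 5 of 19 tested were higher in KYSE70 and 6 in KYSE450. The D-type cyclins, partners of CDK4 and CDK6, differed by member. CCND1 stood at 123, 151, 146 and 172 in KYSE70 and 181, 171, 133 and 118 in KYSE450 and was not called (adjusted p = 0.941). In the plasmid arm alone it was called higher in KYSE450 (-0.37, adjusted p = 0.00423). CCND2 stood at 0.531, 0.354, 1.17 and 6.58 against 80.7, 95.5, 124 and 97.5 (log2 difference -5.36, SE 0.39, adjusted p = 5.29e-05), and CCND3 at 230, 204, 205 and 61.2 against 36.4, 30, 43.7 and 20.2 (log2 difference 2.28, SE 0.20, adjusted p = 0.000137). CDKN2B, which encodes the CDK inhibitor p15, was at most 0.0439 FPKM in KYSE70 and stood at 6.97, 7.43, 14.3 and 7.04 in KYSE450 (-3.21). Its neighbour CDKN2A, which encodes p16 and ARF, was listed at 0.0816, 0, 0 and 0 in KYSE70 and 0.379, 0.57, 0.135 and 0.219 in KYSE450, below the filter in both. MTAP, the next gene on that side of chromosome 9, was expressed in both lines, at 39.4, 35.8, 35.5 and 46 against 51.6, 48.3, 83 and 84.2 (-0.72). CDKN1A, which encodes p21, was higher in KYSE70 (1.95). At chromosome band 11q13, which holds CCND1 and is often amplified in ESCC, 1 of 14 tested genes was higher in KYSE70 and 6 in KYSE450. The former was CPT1A (2.04). Of the latter, CTTN, which encodes the actin regulator cortactin, stood at 229, 235, 259 and 192 against 431, 467, 459 and 504 (-1.03), while SHANK2 (-3.11) and NADSYN1 (-1.59) were lower in KYSE70 too.

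Genes of HLA class I were lower in KYSE70. Of 14 tested genes of antigen presentation, 7 were called higher in KYSE450 and 0 in KYSE70; without the KYSE70 shRNA library 1 was called in KYSE70. HLA-C stood at 4.5, 6.05, 9.7 and 6.62 in KYSE70 and 19.5, 24.1, 28.8 and 33.9 in KYSE450 (log2 difference -1.85, SE 0.16, adjusted p = 0.000109). HLA-B was at most 0.691 FPKM in KYSE70 and stood at 12.1, 19, 49.8 and 72.2 in KYSE450 (-4.36), and HLA-F stood at 0.0333, 0, 0 and 0.0793 against 11.3, 15.2, 12.5 and 15.7 (-3.83). B2M, the shared light chain, was high in both, at 225, 217, 240 and 267 against 261, 312, 322 and 426, with overlap (-0.46, adjusted p = 0.0211). Classical HLA genes are highly polymorphic and alike, so their FPKM also depends on how well each line's alleles matched the reference; its part was not tested. Of 21 tested interferon-responsive genes, 10 were higher in KYSE450, 3 in KYSE70 and 8 were not called. IFI44 stood at 0.0668, 0, 0 and 0.0795 against 9.62, 13.5, 1.25 and 11.8 (-2.98), and the RNA sensor IFIH1 at 0.0495, 0.0173, 0.137 and 0.236 against 2.26, 3.05, 6.01 and 7.85 (-2.27). BST2, which encodes the viral restriction factor tetherin, was among the 3, at 176, 157, 169 and 133 in KYSE70 against 1.41, 2.83, 0.479 and 2.72 in KYSE450 (log2 difference 5.90, SE 0.28, adjusted p = 9.29e-06).

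Of 14 tested cytokine genes and their targets, 6 were higher in KYSE70 and 3 in KYSE450. IL1A stood at 2.18, 3.56, 16.6 and 20.7 in KYSE70, higher in the lentiviral arm, and at most 0.0743 FPKM in KYSE450 (3.04, SE 0.47). IL1B, of the same family, stood at 1.94, 2.68, 10.3 and 7.45 against 0.0836, 0.0774, 0.0298 and 0 (2.44). IL18, another member of the interleukin 1 family, was high in both lines and higher in KYSE70, at 120, 115, 133 and 179 against 37.4, 44.4, 51.5 and 53.8 (1.52). TSLP, an epithelial alarm cytokine, was higher in KYSE450 (-1.61).

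Genes of transforming growth factor β and bone morphogenetic protein (BMP) signalling were mostly higher in KYSE70, with 14 of 24 tested called there and 2 in KYSE450 (median 0.93). The ligand BMP4 stood at 9.87, 8.73, 14.5 and 29.2 in KYSE70 and 2.31, 2.34, 1.54 and 1.89 in KYSE450 (2.31), and the protease BMP1 at 61.5, 64.7, 53 and 43.7 against 9.97, 10.4, 5.74 and 6.21 (log2 difference 2.67, SE 0.14, adjusted p = 1.27e-05). ID1, ID2 and ID3, direct targets of BMP signalling, were all higher in KYSE70 (1.58, 1.73 and 3.01), with ID3 at 278, 207, 271 and 234 against 62.7, 54.2, 10.7 and 20.4. The inhibitory SMAD6 (2.27) and SMAD7 (1.52) were higher there as well. TGFB2 was the reverse, at 0.0958, 0.0223, 0.0887 and 0.076 against 6.27, 4.94, 2.32 and 1.7 (-2.05). In the WNT list 10 of 24 were higher in KYSE70 and 5 in KYSE450. WNT5A, a ligand of the non-canonical pathway, stood at 73.1, 72.6, 70.3 and 108 against 2.6, 1.47, 2.88 and 5.6 (log2 difference 4.38, SE 0.17, adjusted p = 4.54e-06), and WNT7A ran from 3.81 to 4.58 against 0.0317 to 0.227 (2.21). The receptor FZD7 was higher in KYSE70 (1.74), and FZD10 (-2.30), the nuclear effector TCF7 (-1.55) and LGR4 (-1.44, with overlap) in KYSE450.

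Ribosomal protein genes made up 8.82 to 10.1% of the FPKM sum in KYSE70 CON, NMR and shcon, 6.56% in KYSE70 shRNA and 13.18 to 14.41% in KYSE450. These shares count every gene with a cytosolic ribosomal protein name. On a shorter list of 37 such genes, all tested, 19 were called higher in KYSE450 and 0 in KYSE70 (median -0.54). Without the KYSE70 shRNA library, 20 were called higher in KYSE450 and 3 in KYSE70. RPL27 stood at 722, 657, 756 and 198 in KYSE70 and 1684, 1696, 1961 and 1832 in KYSE450 (-1.79), and RPS3 at 1763, 1600, 1925 and 906 against 4782, 4845, 4768 and 5006 (-1.70). The lowest value of each was in KYSE70 shRNA, the library with the highest mitochondrial share; its part in the counts was not tested.

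Some genes were detected in 1 line alone, taken as at least 5 FPKM in all 4 libraries of a line and at most 0.1 FPKM in all 4 of the other. There were 20 in KYSE70, 17 of them protein-coding, and 72 in KYSE450, 58 of them protein-coding. No read was recovered from the other line for 2 of the 20 and 1 of the 72, and the rest had some reads there. The KYSE70 genes included CDA, the cytidine deaminase (21.3 to 27.2 FPKM), GSTT1, a glutathione transferase (13.5 to 17.5 FPKM), for which no read was recovered from KYSE450, ALDH1L1, which oxidises formyl-tetrahydrofolate (12 to 27.6 FPKM), and the neural adhesion gene NCAM1 (12.7 to 16.1 FPKM). The GABA receptor gene GABRA2 (5.22 to 13.7 FPKM) was also among them. Of 7 neuroendocrine markers, NCAM1, SYP and CHGB reached 1 FPKM, with a summed level of 21.3 to 35.3 FPKM in KYSE70 and 2.34 to 2.59 FPKM in KYSE450, and NEUROD1 was listed at 0 in all 8 libraries. With ENO2, an enolase of neurons that is also a glycolytic enzyme, the sums were 104 to 191 FPKM and 6.17 to 25.7 FPKM. In KYSE450 the genes included PLOD2, a collagen lysyl hydroxylase (31.8 to 47.6 FPKM), MGMT, which repairs alkylated guanine (24.7 to 30.4 FPKM), and ITGA4 (9.3 to 26.3 FPKM). FHIT, a gene at a common fragile site (5.4 to 7.54 FPKM), BRDT, a bromodomain gene of the testis (14.4 to 22.2 FPKM), and the brain transcription factor gene ZIC1 were in that group too. These genes were chosen after their values were seen, and the split depends on the bounds: with 2 in place of 5 FPKM it was 43 and 178.

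Genes higher in the same line lay side by side in several chromosomal stretches. Over 20 neighbouring tested protein-coding genes at a time, with positions from GENCODE 29 on GRCh38, the median difference was lowest at chr19:20077994-24129961. All 20 genes there encode zinc finger proteins, and all 20 were higher in KYSE450, with a median of -2.20 and no overlap between the lines. ZNF43 stood at 0, 0, 0 and 0.103 in KYSE70 and 9.33, 8.98, 5.7 and 6.92 in KYSE450 (log2 difference -3.07, SE 0.18, adjusted p = 2.06e-05). ZNF431 stood at 0.861, 0.387, 1.2 and 1.38 against 12.6, 13.9, 12.6 and 13.2 (-2.88), and ZNF91, which encodes a repressor of retroelements, at 0.831, 0.392, 1.31 and 2.15 against 9.87, 11.8, 10.8 and 13.8 (-2.59). ZNF675 (-2.76) and ZNF429 (-2.74) were similar in size. Genes of this family resemble each other closely, so reads can be shared among neighbours and the 20 values are not independent. Zinc finger genes as a whole were not on 1 side: of 386 tested with a ZNF name, 92 were higher in KYSE70 and 116 in KYSE450, with a median of -0.03. A second stretch of chromosome 19, chr19:36687612-38332076, held 15 zinc finger genes and SPINT2, with 15 of 20 genes higher in KYSE450 and 0 in KYSE70. ZNF345 was at most 0.0717 FPKM in KYSE70 and stood at 5.98, 6.48, 4.69 and 4.96 in KYSE450, and ZNF585B was listed at 0 in all 4 KYSE70 libraries and stood at 3.51, 4.14, 5.48 and 3.65 in KYSE450.

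**Figure D4:**
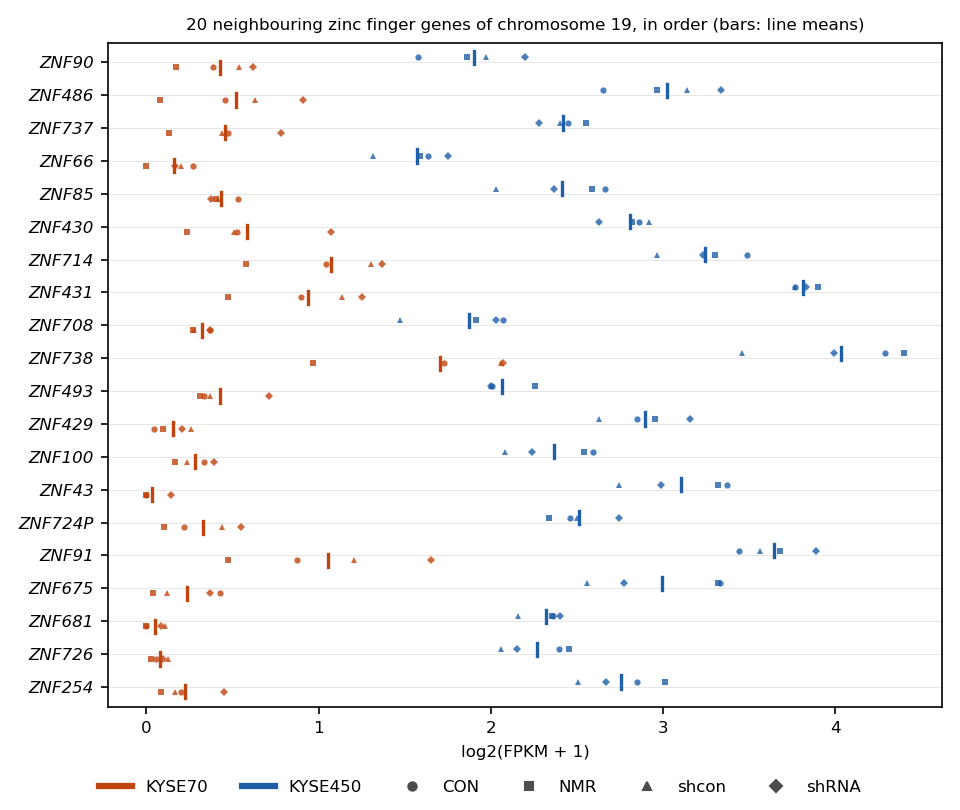
The 20 neighbouring zinc finger genes of chromosome 19 with the lowest median difference, in chromosomal order from top to bottom, as log2(FPKM + 1); points are libraries, shapes are treatments and bars are means of 4 libraries. All KYSE450 points lie to the right of all KYSE70 points for each of the 20 genes.

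On chromosome 2, 19 of the 20 genes of chr2:156324432-163736012 were higher in KYSE450 (median -1.71). They included GPD2, the mitochondrial glycerol phosphate dehydrogenase, at 0.214, 0.0816, 0.255 and 0.509 in KYSE70 against 47, 39.6, 51.9 and 53 in KYSE450 (-5.27), GALNT5 (-5.31), GCA (-4.29), IFIH1 and ITGB6. The stretch chr2:101345551-110116566 held 16 genes higher in KYSE450 and 3 in KYSE70 (median -1.56), with FHL2 (-2.89) and MALL (-2.86) among the former. KYSE70 was higher in stretches of chromosomes 10, 11 and 3. At chr10:24848607-31529814, 15 of 20 genes were higher in KYSE70 and 3 in KYSE450 (median 1.66), among them BAMBI, a decoy receptor for BMP ligands, at 117, 123, 247 and 186 against 1.14, 0.836, 3.96 and 2.62 (5.80), WAC (2.68) and ZEB1. At chr11:119417378-125090312 18 were higher in KYSE70 and 2 in KYSE450 (median 1.59), with THY1, TRIM29 and UBASH3B (2.97). At chr11:126303752-134378341 16 were higher in KYSE70 and 2 in KYSE450 (median 1.58), with ST3GAL4 (3.11), BARX2 (2.50) and ST14. At chr3:179148114-183428778, which holds SOX2, 16 of 20 were higher in KYSE70 and 0 in KYSE450 (median 1.43). PIK3CA, the catalytic subunit of PI3 kinase, stood there at 74.3, 82.5, 83.3 and 142 against 19.3, 19.4, 22.9 and 21.6 (log2 difference 2.10, SE 0.16, adjusted p = 7.45e-05), and ZNF639 (2.88), USP13 (2.38) and ACTL6A (2.25) were higher as well. The stretches were picked for their medians, so their counts are a description. Over whole chromosomes the median of protein-coding genes ran from -0.47 on chromosome 16 to 0.63 on the X chromosome. Of 375 tested protein-coding genes on X, 227 were called higher in KYSE70 and 55 in KYSE450. That is 75.2% called, against 54% of all tested genes. DNA copy number was not measured here.

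The line difference itself depended on the arm for 912 genes (6.37% of those tested at an adjusted p of 0.05 for the interaction of line and arm, which leaves 2 residual degrees of freedom). It was larger in the plasmid arm for 220 (1.54%) and larger in the lentiviral arm for 692 (4.84%), in the sense of KYSE70 minus KYSE450. With median-ratio scaling the split was 509 and 471, and the median arm difference of all genes moved from -0.117 to 0.051, so the balance of the 2 directions rests on the scaling. With no filter on low values 0 genes passed limma's adjusted test, and with 1 library left out 330 to 6101 did. Of the 912 genes, 448 kept the same sign in all 4 treatments, as did 64.7% of all tested genes. A further 93 of the 912 were higher in KYSE70 in both plasmid libraries and lower in both lentiviral ones, and 253 were the reverse. NTRK2, the receptor of brain-derived neurotrophic factor, stood at 27.8, 31, 44.3 and 31.2 in KYSE70 and 0.933, 1.13, 52.6 and 56.6 in KYSE450. Both KYSE450 lentiviral libraries lay above all 4 of KYSE70, and both plasmid libraries below, and the arm difference was 4.44 (SE 0.26, adjusted p = 0.00306). LCN2, which encodes the iron-carrier binding protein lipocalin 2, stood at 0.516, 0.451, 0.665 and 1.07 against 0.899, 1.71, 278 and 149, and IL8, a neutrophil chemokine, at 0.254, 0.666, 1.51 and 0.567 against 0.184, 0.239, 91 and 29. Both were high only in the 2 lentiviral KYSE450 libraries of the 8, with arm differences of 6.17 (adjusted p = 0.00345) and 4.98 (adjusted p = 0.0037). In the other direction KRT4, a keratin of mature esophageal epithelium, stood at 3.62, 4.12, 2.89 and 7.12 against 80.1, 72.1, 1.36 and 3.98 (-4.70, SE 0.23, adjusted p = 0.00276). SORCS2, a sorting receptor, stood at 0.162, 0.243, 0.481 and 1.03 against 13.8, 15.9, 0.23 and 0.398 (-4.12), and EPHB3 at 2.49, 2.71, 8.65 and 19.4 against 21.3, 29.6, 4.79 and 8.59 (-3.77). SLC44A2 and EDN2, which encodes endothelin 2, had arm differences of -3.19 and -3.79. The arms differ in vector, delivery and control, which cannot be told apart here.

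**Figure D5:**
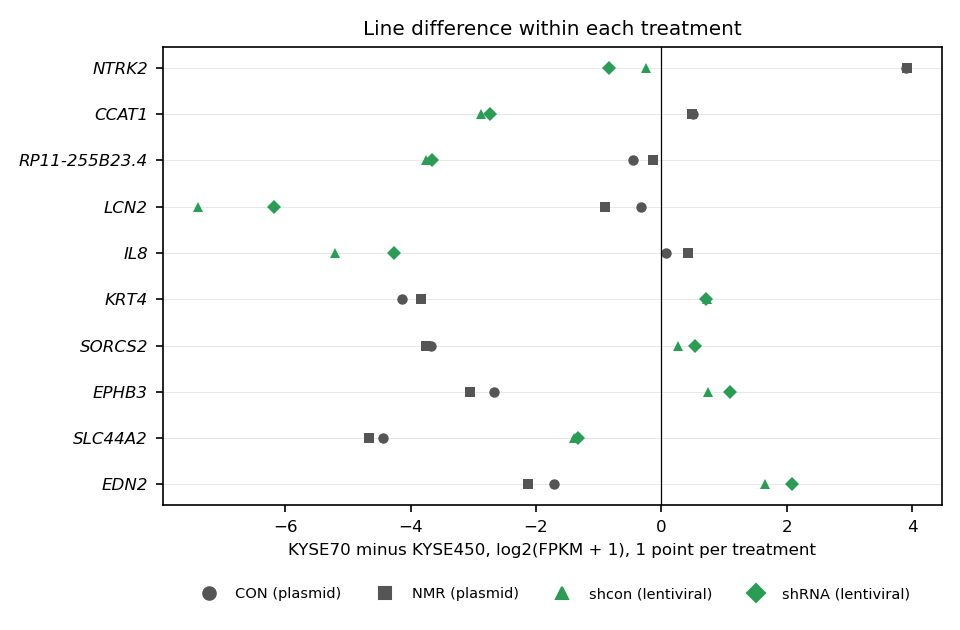
KYSE70 minus KYSE450 on the log2(FPKM + 1) scale within each treatment for the 10 genes with the lowest p for an arm difference, 5 in each direction; grey points are the plasmid arm and green points the lentiviral arm. For NTRK2 the 2 plasmid points lie at 3.90 and 3.91 and the lentiviral points at -0.24 and -0.84; for KRT4 the plasmid points lie at -4.14 and -3.84 and the lentiviral points at 0.72 and 0.71.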

How the data were processed

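Total RNA of KYSE70 and KYSE450 cells was sequenced in 8 libraries, 4 per line. The deposited tables hold a single value for each gene in a library. No header or label names the unit. The deposited values were taken to be FPKM, calculated by the authors from reads, gene length and library reads before the files were deposited. Whole reads could be recovered from the steps of the values for all 30872 genes above 0 in at least 2 libraries, within 0.02 of a whole number. Counts multiplied by any gene constant and library constant would give such steps too, so the recovery cannot decide the unit. TopHat2 2.0.9, HTSeq 0.6.1 and the build hg19 appear in the submitters' processing notes, with no roles. The strand setting, annotation and filters are not stated, so a gene and its antisense partner may share reads. Recovered reads cover counting error only. No other per-sample columns were present. Groups came from the titles.

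Genes with a mean of at least 1 FPKM (14311) were fitted as log2(FPKM + 1) with limma 3.58.1 (trend) in R 4.3.3, with terms for treatment and line (3 residual degrees of freedom, prior 3.99, median residual SD 0.226), with Benjamini-Hochberg adjustment over all tested genes and calls at 0.05. A difference on this scale understates the change of genes with low values. Treatments were taken to pair the libraries: deviations of same-treatment libraries from their line means correlated at 0.334 (CON), 0.158 (NMR), 0.279 (shcon) and 0.203 (shRNA). Libraries of the same arm but another treatment correlated at 0.111 to 0.358, the highest being KYSE70 NMR with KYSE450 CON, and libraries of different arms at -0.328 to -0.075. The arm comparison added the interaction of line and arm. Positions and gene types came from GENCODE 29 (45342 of 48162 identifiers matched), promoters from RefSeq on GRCh38.p14. The fit was tested on simulated data of this comparison (14311 genes, 200 changed): 43.4% were recovered at 2-fold and 85.2% at 4-fold, with 4.4 false calls per draw over 5 draws. Far fewer genes were changed there than the 7726 called in the data, and errors were drawn independently for each library. The recovery and false calls of the simulation therefore do not carry over to the comparison itself.

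The comparison, the 38 gene lists, of which 19 are described, and the rules were chosen with earlier results of these data known. Named were the 10 protein-coding genes with the largest difference on each side and no overlap between the lines, up to 4 called members of each list per direction, 8 founder genes, 5 genes per direction of the arm comparison by p and up to 5 per chromosomal stretch; other members that the text names were chosen after their values were seen. Alternatives changed the pseudocount, filter, block, scaling, threshold and prior, used voom on recovered reads, took each arm or the controls alone and left out each library in turn. Some genes that the rules name are not reported here, but stay in the counts of the lists and of all genes. List counts without the KYSE70 shRNA or shcon library were added after the data were seen.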

Additional observations from a re-analysis of the deposited data

Results flagged for a closer look

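The difference between the lines differed between the arms for 33 of the 191 genes named by rule. The test was limma's interaction of line and arm (adjusted p under 0.05). Over all tested genes it passed for 912 of 14311 (6.37%), and for 0 with no filter on low values. Of the 33, 10 were named for their low p in this same comparison, so their place here was fixed by the choice. The value given is the line difference in the plasmid arm minus that in the lentiviral arm, on the log2(FPKM + 1) scale. Values above 0 were found for LCN2 (6.17), IL8 (4.98), NTRK2 (4.44), RP11-255B23.4 (3.40), CCAT1 (3.30), EREG (3.01), DKK1 (2.19) and HLA-B (1.76). Among the epithelial and squamous genes, values below 0 were found for KRT4 (-4.70), EHF (-3.03), KRT15 (-2.52), CDH1 (-2.07), GRHL3 (-1.93), SCEL (-1.73), CDH3 (-1.54) and CLDN4 (-1.46). Among genes of matrix and proteases they were found for TIMP3 (-2.42), COL6A2 (-2.10), MMP2 (-1.67) and TIMP2 (-1.62). Among signalling genes they were found for SORCS2 (-4.12), EDN2 (-3.79), EPHB3 (-3.77), AXL (-2.35), IL1A (-2.35), ID3 (-1.98), IL1B (-1.66), LGR4 (-1.48), BMP4 (-1.37), TGFB2 (-1.17) and ERBB3 (-1.13). SLC44A2, a choline transporter-like gene (-3.19), and the cytochrome CYP4F3 (-1.38) complete the set.

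In 23 of 389 tests over the named genes and 4 measures of the libraries, 1 of the 4 libraries of a line lay far from the other 3. The tests used Dixon's criterion on the log2(FPKM + 1) scale, where chance flags about 1 in 20. The total is close to that rate, so a single flag is not a result on its own. KYSE70 shRNA was the outlying library for 13 of the 23 flags. It was low for FAM50A (55.9 FPKM), RPL27 (198 FPKM), CCND3 (61.2 FPKM) and DKK1 (28.3 FPKM). It was high for IGFBP3 (3127 FPKM), ALDH3A2 (2067 FPKM), NFE2L2 (238 FPKM), WNT5A (108 FPKM), TIMP3 (55.2 FPKM), KRT14 (38.3 FPKM) and EDN2 (34.1 FPKM), and, at levels near 0, for ZNF43 (0.103 FPKM) and ZNF420 (0.0366 FPKM). In the other KYSE70 libraries, GRHL3 was high in shcon (24.5 FPKM), and at values near 0 CBR1 was low in NMR (0.0587 FPKM) and CDKN2A (0.0816 FPKM) and EREG (0.0293 FPKM) were high in CON. In KYSE450 the shcon library was high for NFE2L2 (138 FPKM) and CDKN2B (14.3 FPKM) and low for IFI44 (1.25 FPKM) and FIGN (4.16 FPKM), and the NMR library was low for ALDH1A3 (66 FPKM) and FGF2 (0.621 FPKM).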

How the results depend on the processing

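The count of genes called between the lines stayed within 1.5 times 7726 under every alternative run, from 5227 at an adjusted p of 0.01 to 10529 with the plasmid arm alone, and from 6077 to 7651 when 1 library was left out. Without the replicate block, that is, without pairing by treatment, it was 7195. The count with a difference of at least 1 (3474) was 2211 with a mean of at least 5 FPKM, where fewer genes are tested, and 3434 to 3562 with 1 library left out. Genes detected in 1 line alone numbered 92, and 221 with 2 in place of 5 FPKM, 257 with 0.5 in place of 0.1 FPKM, and 97 to 112 with 1 library left out. The count of genes whose line difference depended on the arm was the least stable: 912 became 0 with no filter on low values (35668 genes tested by limma, 5761 at an unadjusted p under 0.05), 511 with a mean of at least 5 FPKM, 541 with quantile normalization, 49 at an adjusted p of 0.01, and 330 to 6101 with 1 library left out, which leaves 1 residual degree of freedom (330 to 462 without a CON or NMR library and 4069 to 6101 without a shcon or shRNA library). With treatment as a block, a left-out library also takes its partner out of the line difference. With median-ratio scaling and with voom on recovered reads it was 980 each. The cause was not tested. Among the named genes 3 changed sign, none of them called with all 8 libraries. SOX2 gained a call in 4 refits (0.36 in the plasmid arm alone, 0.57 in the controls alone, 0.51 with either shRNA library left out) and CCND1 in 1 (-0.37 in the plasmid arm alone). The signs changed for CCND1 (0.33 in the lentiviral arm alone, -0.20 to 0.16 with 1 library left out), SOX2 (-0.10 in the lentiviral arm alone, -0.10 to 0.51 with 1 library left out) and NFE2L2 (-0.05 in the plasmid arm alone, -0.23 in the controls alone, -0.19 to 0.35 with 1 library left out). Of the called named genes 18 lost the call under at least 1 alternative, in 74 combinations of gene and alternative. The 10 named arm genes lost their call with no filter (limma's adjusted p = 0.174) and under no other alternative in which they were tested. With a mean of at least 5 FPKM, 9 of them were tested. They were picked for their low p in this same comparison, so keeping the call is not separate support. At this depth, levels under about 0.1 FPKM rest on a handful of reads per library.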

Other observations

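Other gene groups, counted in the same fit, also fell on both sides. Mitotic genes were more often higher in KYSE70, with 13 of 25 tested called there and 3 in KYSE450 (median difference 0.40). Of 16 tested genes of the NOTCH pathway, which directs squamous differentiation, 8 were higher in KYSE70 and 2 in KYSE450 (median 0.43). With either shcon library left out, the 8 became 5. Genes of cholesterol and fatty acid synthesis were called in both directions, 12 higher in KYSE70 and 8 in KYSE450 of 25 tested. The HOX clusters, which record position along the body axis, differed by cluster: in HOXC 5 of 7 tested genes were higher in KYSE70 and 1 in KYSE450, and in HOXA 2 of 8 were higher in KYSE70 and 4 in KYSE450. Reference genes commonly used for scaling had a median of 0.05, with 6 of 22 higher in KYSE70 and 4 in KYSE450. Against these counts stand the 26.6% and 27.4% of all tested genes that were called in the same directions.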
